A study of Bos taurus and Bos indicus with 12 samples.

Results

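The bovine leukocyte antigen (BoLA) class II genes were followed in the skin of 12 female cattle, 1 Affymetrix bovine array per animal. They were taken as every probe set whose platform annotation gives a single gene symbol starting with BOLA-D, which yielded 12 of the 9155 genes named singly on the array and 20 of the 24016 probe sets tested. BOLA-DRA, BOLA-DMA, BOLA-DMB, BOLA-DOA, BOLA-DYA, BOLA-DYB, BOLA-DQA5 and BOLA-DQB had 1 probe set each, BOLA-DRB3 and BOLA-DQA1 had 2, BOLA-DQA2 had 3 and BOLA-DQB1 had 5. The rule used only the symbols and no measured value, but it was set with earlier results of these data known. The groups were 3 tick-infested Brahman cattle aged 6 months, 3 tick-naive Brahman cattle aged 18 months, 3 tick-infested Holstein-Friesian cattle aged 6 months and 3 tick-naive Holstein-Friesian cattle aged 12 months. Infested animals had gone through repeated heavy infestation with the cattle tick Rhipicephalus microplus and were biopsied where larvae were feeding, whereas naive animals had never met this tick. Every infested animal was younger than every naive one, so infestation and age cannot be told apart, and naive Brahman cattle were older than naive Holstein-Friesian cattle. Each biopsy was a punch through the whole skin, so every value is a mixture over epidermis, dermis and whatever blood cells had entered.

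MHC class II molecules are pairs of an alpha and a beta chain that display peptides from taken-up proteins to CD4+ T cells. Dendritic cells, macrophages and B cells carry them at rest, and interferon gamma induces them in other cells through the co-activator CIITA. In cattle the DR molecule is built from the nearly invariant DRA chain and the highly polymorphic DRB3 chain, while DQ alpha and beta chains are both polymorphic and the number of DQ genes differs between haplotypes. DM is the endosomal editor that loads peptides, DO modulates DM, and DY is a pair found in ruminants whose transcripts have been described in dendritic cells. In the RefSeq gene table of the cattle assembly ARS-UCD2.0, 11 of the 12 genes were found, all on chromosome 23, in the order DYA, DYB, DMB, DMA, DOA, DQA2, DQB, DQA5, DQB1, DRB3 and DRA. The gene identifier of BOLA-DQA1 was not matched there.

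Values are log2 expression after robust multi-array averaging (RMA). A probe set is a group of short probes for 1 transcript. In its name the ending _at means that the probes are meant to be unique, _a_at that they also match transcripts of the same gene family, _s_at that they are shared by several transcripts, and _x_at that some resemble other sequences. Levels of different probe sets were not set against each other. A difference was called where limma's Benjamini-Hochberg adjusted p over all 24016 probe sets was below 0.05, and each difference is given with its standard error.

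Array medians lay between 6.58 and 6.73 on the log2 scale. A 5′ minus 3′ index, the mean log2 difference between the 5′ and 3′ control probe sets of 5 control transcripts, is lower where RNA is more degraded. It was -4.91, -2.56 and -2.07 in infested Brahman skin, -0.85 to -1.04 in naive Brahman skin, -2.73, -0.75 and -1.23 in infested Holstein-Friesian skin and -0.82 to -1.39 in naive Holstein-Friesian skin. Infested Brahman 1 and infested Holstein-Friesian 1 stood lowest. Leaving out 1 of them was checked for the infestation differences within a breed given below for single-symbol class II probe sets. Where it moved such a difference by over 1.5 times or changed its call, the value without the array is given. The mean log2 level of 6 measured skin genes (keratins, collagens and desmoglein among them) was between 13.88 and 14.13 in infested Brahman skin, 13.58 and 13.79 in naive Brahman skin, 13.80 and 13.91 in infested Holstein-Friesian skin, and 13.73 and 13.95 in naive Holstein-Friesian skin. In Brahman skin the collagens COL1A1 and COL1A2 were called higher in infested animals, and none of the other skin genes was called. COL1A2 read 13.69, 14.38 and 14.52 in infested and 12.60, 13.31 and 13.14 in naive Brahman animals.

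Transcripts of the DR molecule were higher in infested than in naive skin. BOLA-DRB3 (probe set Bt.28011.1.S1_at), the beta chain of DR, rose in both breeds, by 2.40-fold in Brahman and 3.54-fold in Holstein-Friesian skin. BOLA-DRA, the alpha chain, and the shared DRB3 probe set Bt.5356.1.S1_s_at rose in Holstein-Friesian skin and over both breeds together. In Brahman skin alone these last 2 probe sets did not pass the test.

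BOLA-DRB3 by Bt.28011.1.S1_at read 9.67, 10.04 and 10.23 in the infested Brahman animals, against 8.78, 8.23 and 9.14 in the naive Brahman animals. The same probe set read 10.06, 10.51 and 9.94 in the infested Holstein-Friesian animals, against 8.34, 8.84 and 7.85 in the naive Holstein-Friesian animals. All 6 infested animals stood above all 6 naive animals, with an empty interval between 9.14 and 9.67. The infested minus naive difference was 1.27 ± 0.29 in Brahman (adjusted p = 0.0139) and 1.83 ± 0.29 in Holstein-Friesian (adjusted p = 0.0108), and 1.55 ± 0.21 as the mean of both breeds (adjusted p = 0.000619). The Brahman call was lost only without naive Brahman 2 (1.02, adjusted p = 0.0543) and the Holstein-Friesian call only without naive Holstein-Friesian 1 (1.82, adjusted p = 0.053), while the mean over breeds held under all 20 alternatives.

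The second DRB3 probe set, Bt.5356.1.S1_s_at, is shared by several transcripts. It read 11.30, 11.53 and 11.18 in infested Brahman animals, against 10.06, 10.75 and 10.97 in naive Brahman animals. It read 10.97, 11.96 and 11.06 in infested Holstein-Friesian animals, against 9.38, 10.28 and 10.03 in naive Holstein-Friesian animals. Within each breed the groups did not overlap, but naive Brahman 3 reached the level of infested Holstein-Friesian 1. The difference was 0.74 ± 0.32 in Brahman (adjusted p = 0.128), 1.44 ± 0.32 in Holstein-Friesian (adjusted p = 0.0331) and 1.09 ± 0.23 over both (adjusted p = 0.00599). The Holstein-Friesian call held under 14 of 21 alternatives and was lost, among others, without infested Holstein-Friesian 2 (1.12, adjusted p = 0.0864).

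BOLA-DRA (Bt.8552.1.S1_at) read 12.14, 11.43 and 11.39 in infested Brahman animals, against 10.62, 11.05 and 11.33 in naive Brahman animals. It read 11.58, 12.34 and 11.39 in infested Holstein-Friesian animals, against 10.21, 11.00 and 10.40 in naive Holstein-Friesian animals. The groups were apart in both breeds, although naive Brahman 3 lay just below the lowest infested animals. The difference was 0.65 ± 0.31 in Brahman (adjusted p = 0.167), or 0.41 without infested Brahman 1 (adjusted p = 0.41), the highest Brahman value, and 1.24 ± 0.31, or 2.36-fold, in Holstein-Friesian (adjusted p = 0.048, or 0.0641 with the animal number as a block). Over both breeds it was 0.94 ± 0.22 (adjusted p = 0.0104). The Holstein-Friesian call held under 7 of 21 alternatives and, of the 12 fits without 1 array, only without infested Brahman 1, with values from 0.95 to 1.47. It was lost without infested Holstein-Friesian 1 (1.33, adjusted p = 0.055). The mean over breeds held under 19 of 20 alternatives and was lost with the 5′ minus 3′ index as a covariate (adjusted p = 0.0768). In a whole-skin punch, more cells that carry DR and more DR transcript per cell cannot be told apart.

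The breeds did not differ detectably in DR. Brahman minus Holstein-Friesian, averaged over naive and infested animals, was 0.18 ± 0.22 for BOLA-DRA, and 0.10 ± 0.21 and 0.35 ± 0.23 for the BOLA-DRB3 probe sets, with 95% confidence intervals of -0.31 to 0.66, -0.36 to 0.55 and -0.15 to 0.85. The difference between the breeds in the infestation effect was -0.59 ± 0.44 for BOLA-DRA (adjusted p = 0.737) and -0.56 ± 0.41 for BOLA-DRB3 Bt.28011.1.S1_at (adjusted p = 0.73). Its 95% confidence intervals, -1.56 to 0.39 and -1.47 to 0.35, include breed differences of over 1 log2 unit.

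**Figure D1:**
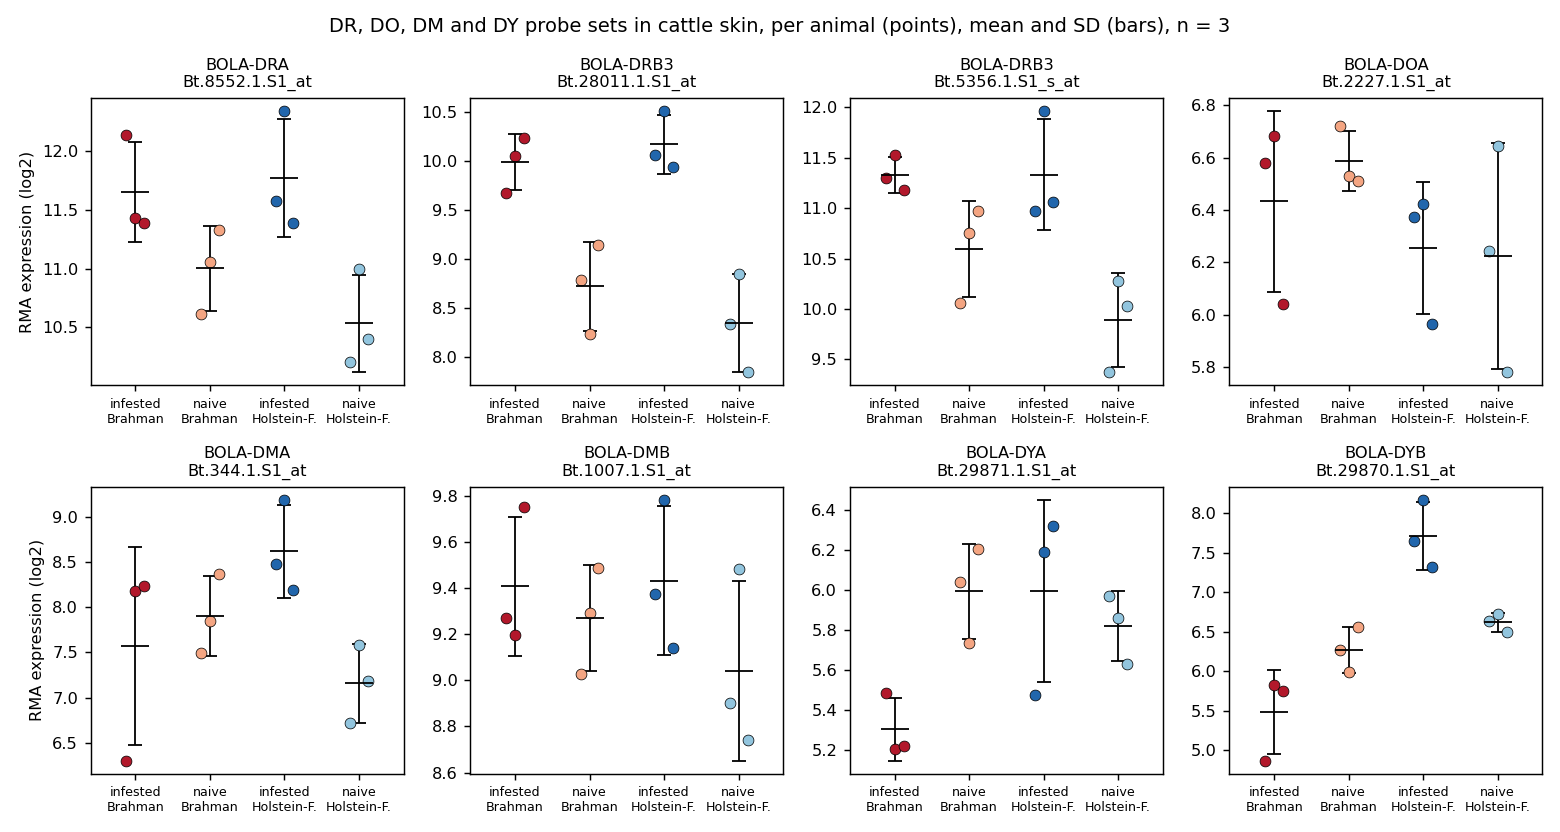
RMA expression (log2, vertical axis, a separate range in each panel) of the DR, DO, DM and DY probe sets in the 4 groups of 3 animals. Points are animals, and the horizontal bars and whiskers are group means and SD. For BOLA-DRB3 Bt.28011.1.S1_at all infested animals sit at 9.67 or above and all naive animals at 9.14 or below. For BOLA-DYB the infested Brahman animals sit lowest and the infested Holstein-Friesian animals highest.

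The DQ genes behaved differently: several of their probe sets were near the bottom of the scale in some animals of a group and high in the others. The largest spread was in BOLA-DQA2, a DQ alpha chain. Its probe set Bt.4751.1.S1_a_at read 10.99, 11.28 and 11.34 in infested Brahman animals, against 5.13, 10.09 and 4.28 in naive Brahman animals. It read 4.87, 11.24 and 11.65 in infested Holstein-Friesian animals, against 8.71, 5.11 and 9.33 in naive Holstein-Friesian animals. Infested Holstein-Friesian 1, naive Holstein-Friesian 2, naive Brahman 1 and naive Brahman 3 were low, at 5.13 or below, and the other 8 animals were at 8.71 or above. The SD within groups was 2.72, larger than that of 99.99% of all probe sets, whose median was 0.26.

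The DQ beta chain probe set BOLA-DQB1 Bt.4594.1.S1_at split the animals in the same way. It read 10.46, 10.92 and 9.87 in infested Brahman animals, against 4.91, 8.67 and 4.89 in naive Brahman animals. It read 4.69, 11.38 and 11.72 in infested Holstein-Friesian animals, against 8.60, 4.53 and 8.91 in naive Holstein-Friesian animals. The 4 animals that were low for BOLA-DQA2 were the 4 low ones here, at 4.91 or below, and no animal lay between 4.91 and 8.60. Over the 12 arrays the correlation of the 2 probe sets was 0.98. Of the 23996 probe sets outside the class II genes, the one most like BOLA-DQA2 reached 0.88, with a range over the arrays of 1.11 log2 units against 7.37 for BOLA-DQA2.

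With this split, the infestation difference of these probe sets was large but poorly determined. For BOLA-DQA2 Bt.4751.1.S1_a_at it was 4.71 ± 1.89 in Brahman (adjusted p = 0.102) and 1.54 ± 1.89 in Holstein-Friesian (adjusted p = 0.691). For BOLA-DQB1 Bt.4594.1.S1_at it was 4.26 ± 1.80 in Brahman (adjusted p = 0.118) and 1.91 ± 1.80 in Holstein-Friesian (adjusted p = 0.584). Without infested Holstein-Friesian 1, which has a low 5′ minus 3′ index, the Holstein-Friesian differences were 3.73 for the BOLA-DQA2 probe set (adjusted p = 0.184) and 4.20 for the BOLA-DQB1 probe set (adjusted p = 0.0915). In that fit, where the array no longer entered the pooled spread, the Brahman differences passed at the same size (adjusted p = 0.0377 and 0.0303). The groups were apart in Brahman and overlapped in Holstein-Friesian, where infested animal 1 was the low one.

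The other BOLA-DQA2 probe sets did not all follow. Bt.4751.2.S1_a_at read 9.16, 10.17 and 10.25 in infested Brahman animals, 7.15, 9.17 and 6.01 in naive Brahman animals, 5.90, 10.69 and 11.10 in infested Holstein-Friesian animals and 7.84, 5.80 and 8.54 in naive Holstein-Friesian animals. It was lowest in the same 4 animals, and its Holstein-Friesian difference was 1.84 with all arrays (adjusted p = 0.439) and 3.50 without infested Holstein-Friesian 1 (adjusted p = 0.0503). Bt.4751.2.S1_at stayed between 4.13 and 4.57 in all 12 animals, with an SD within groups of 0.14.

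BOLA-DQB1 was also read by 2 probe sets of 1 design, Bt.350.1.S1_at and Bt.350.1.S1_x_at, which followed each other with a correlation of 0.999 over the 12 arrays and so count as 1 measurement. Bt.350.1.S1_at read 9.91, 9.60 and 9.15 in infested Brahman animals, against 4.45, 7.93 and 4.44 in naive Brahman animals. It read 6.39, 10.30 and 9.67 in infested Holstein-Friesian animals, against 7.28, 4.90 and 3.31 in naive Holstein-Friesian animals. All infested Brahman animals were above all naive ones, and in Holstein-Friesian infested animal 1 lay below naive animal 1. The SD within groups of Bt.350.1.S1_at was 1.77, larger than that of 99.95% of all probe sets. Its correlation over the 12 arrays was 0.792 with BOLA-DQA2 Bt.4751.1.S1_a_at and 0.795 with Bt.4594.1.S1_at. Naive Brahman 1, naive Brahman 3 and naive Holstein-Friesian 2, low for those, were at 4.90 or below here, and infested Holstein-Friesian 1 was the lowest infested animal. Naive Holstein-Friesian 3, not low for those, was lowest here.

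BOLA-DQB1 by Bt.350.1.S1_at rose by 3.95 ± 1.24 in Brahman (15.4-fold, adjusted p = 0.0457), and the difference in Holstein-Friesian was 3.62 ± 1.24 (adjusted p = 0.118). Over both breeds it was 3.78 ± 0.88 (13.8-fold, adjusted p = 0.00957), which held under all 20 alternatives with values from 3.32 to 4.38. The part in this difference of the split between animals seen with the other DQ probe sets was not tested. The Brahman call held under 11 of 21 alternatives and was lost without infested Brahman 1 (3.77, adjusted p = 0.0886). The Holstein-Friesian difference passed the test without infested Holstein-Friesian 1, whose removal changed it to 4.82 (adjusted p = 0.0407). Bt.350.1.S1_x_at gave 3.63 ± 1.10 in Brahman (adjusted p = 0.0407), 3.37 ± 1.10 in Holstein-Friesian (adjusted p = 0.105) and 3.50 ± 0.78 over both (adjusted p = 0.00804). Without infested Holstein-Friesian 1 its Holstein-Friesian difference was 4.46 (adjusted p = 0.0345), and without infested Brahman 1 its Brahman difference was 3.41 (adjusted p = 0.083).

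The last 2 BOLA-DQB1 probe sets did not show this rise. The shared probe set Bt.350.1.S1_s_at read 12.05, 10.65 and 10.17 in infested Brahman animals, 11.99, 11.54 and 12.37 in naive Brahman animals, 12.50, 12.59 and 10.77 in infested Holstein-Friesian animals and 10.77, 12.15 and 10.79 in naive Holstein-Friesian animals. Infested and naive animals overlapped in both breeds, and its difference over both breeds was -0.15 ± 0.42. It was -1.01 in Brahman and -1.56 without infested Brahman 1, and 0.72 in Holstein-Friesian and 0.45 without infested Holstein-Friesian 1, none of which passed. Bt.7220.1.S1_at read 5.58, 4.80 and 4.39 in infested Brahman animals, 6.01, 6.34 and 6.46 in naive Brahman animals, 9.37, 5.52 and 4.77 in infested Holstein-Friesian animals and 7.23, 8.35 and 7.71 in naive Holstein-Friesian animals. It was lower in all infested than in all naive Brahman animals, and highest in infested Holstein-Friesian 1, one of the animals at the bottom for Bt.4594.1.S1_at. Its correlation with Bt.4594.1.S1_at over the 12 arrays was -0.71, and its difference over both breeds was -1.28 ± 0.65 (adjusted p = 0.164). Without infested Holstein-Friesian 1 the difference over both breeds was -1.98 (adjusted p = 0.000893), that in Holstein-Friesian -2.62 (adjusted p = 0.0109) against -1.21 with all arrays, and that in Brahman passed at its size of -1.35 (adjusted p = 0.0222).

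**Figure D2:**
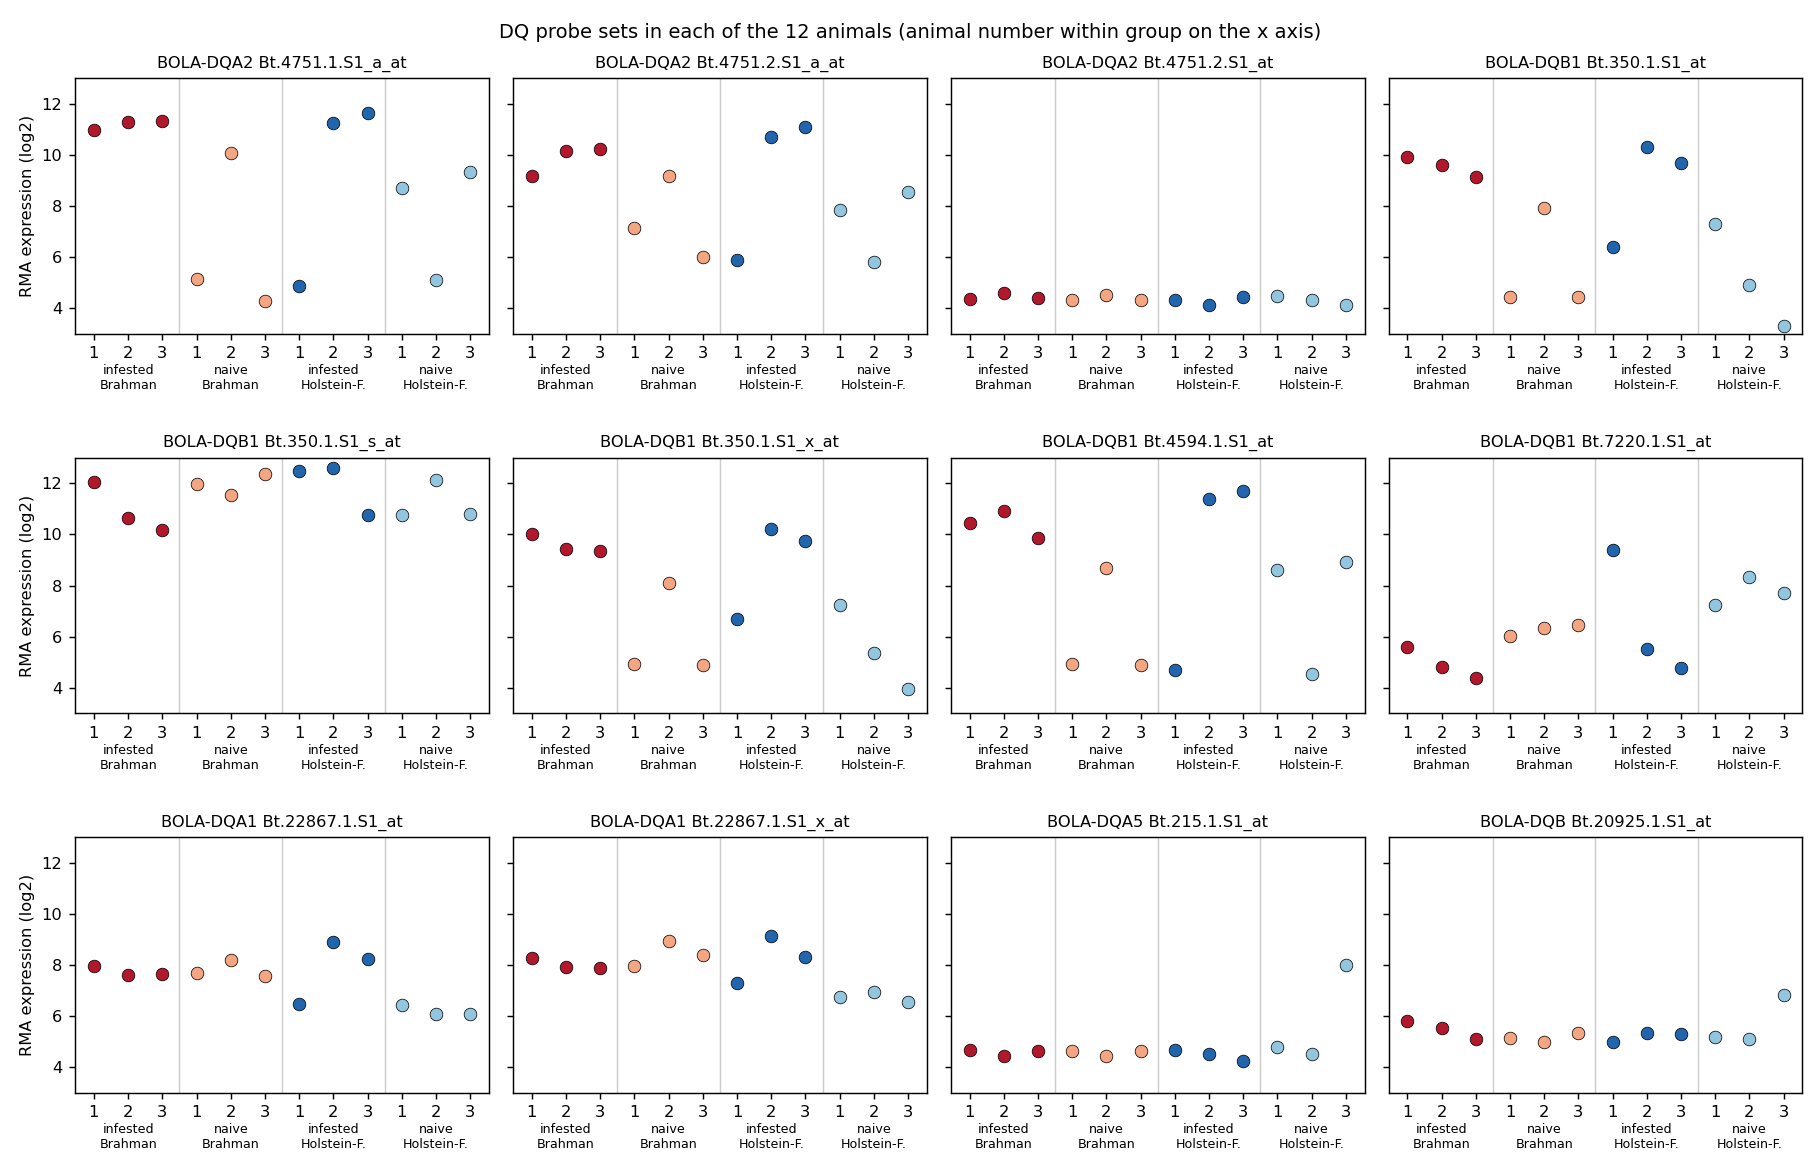
RMA expression (log2, vertical axis) of the 12 DQ probe sets in each of the 12 animals, with the animal number within each group on the horizontal axis. Each point is 1 animal. BOLA-DQA2 Bt.4751.1.S1_a_at and BOLA-DQB1 Bt.4594.1.S1_at are at 5.13 or below in the same 4 animals and at 8.60 or above in the other 8, while BOLA-DQB1 Bt.7220.1.S1_at is highest in infested Holstein-Friesian 1.

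BOLA-DQA1, a DQ alpha chain, separated the naive animals by breed without passing the adjusted test. Bt.22867.1.S1_at read 7.96, 7.62 and 7.64 in infested Brahman animals, 7.69, 8.20 and 7.58 in naive Brahman animals, 6.47, 8.90 and 8.22 in infested Holstein-Friesian animals and 6.42, 6.09 and 6.09 in naive Holstein-Friesian animals. Bt.22867.1.S1_x_at read 8.26, 7.92 and 7.90 in infested and 7.95, 8.95 and 8.40 in naive Brahman animals. In Holstein-Friesian animals it read 7.28, 9.12 and 8.33 (infested) and 6.76, 6.94 and 6.56 (naive). By both probe sets the naive Brahman animals were all above the naive Holstein-Friesian animals. Infested Holstein-Friesian 2 stood above every Brahman animal by both, and infested Holstein-Friesian 3 only by Bt.22867.1.S1_at, at 8.22 against 8.20 in naive Brahman 2. The naive breed difference was 1.62 ± 0.47 for Bt.22867.1.S1_at (unadjusted p = 0.00543, adjusted p = 0.533), and 1.68 ± 0.39 for Bt.22867.1.S1_x_at (unadjusted p = 0.00127, adjusted p = 0.324).

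Infested minus naive, BOLA-DQA1 differed by -0.09 ± 0.47 in Brahman and 1.66 ± 0.47 in Holstein-Friesian (adjusted p = 0.0679) with Bt.22867.1.S1_at. Its Brahman difference was -0.20 without infested Brahman 1 (adjusted p = 0.839). With Bt.22867.1.S1_x_at the values were -0.41 ± 0.39 in Brahman and 1.49 ± 0.39 in Holstein-Friesian (adjusted p = 0.0541, or 0.0479 with the animal number as a block). Without infested Holstein-Friesian 1, an array of low 5′ minus 3′ index, the Holstein-Friesian differences were 2.36 (adjusted p = 0.00444) and 1.97 (adjusted p = 0.0115), and without infested Brahman 1 the second passed at its size of 1.49 (adjusted p = 0.0391). The difference between the breeds in the infestation effect was -1.75 ± 0.67 and -1.90 ± 0.55 (adjusted p = 0.657 and 0.581) with all arrays, and -2.44 and -2.38 (adjusted p = 0.0127 and 0.0264) without that animal.

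BOLA-DQA5 and BOLA-DQB each stood out in 1 animal. BOLA-DQA5 (Bt.215.1.S1_at) read 7.99 in naive Holstein-Friesian 3 and between 4.25 and 4.77 in the other 11 animals. BOLA-DQB (Bt.20925.1.S1_at) read 6.82 in naive Holstein-Friesian 3 and between 4.97 and 5.81 in the others. This animal also had the lowest BOLA-DQB1 Bt.350.1.S1_at value, 3.31. Neither probe set passed a test in any comparison with all arrays. The infestation difference of BOLA-DQB in Brahman was 0.32, or 0.15 without infested Brahman 1.

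Of the peptide loading chains, BOLA-DMB, the beta chain of the DM editor, and BOLA-DOA, the alpha chain of DO, varied little. BOLA-DMB (Bt.1007.1.S1_at) read 9.27, 9.20 and 9.75 in infested Brahman animals, 9.03, 9.29 and 9.49 in naive Brahman animals, 9.37, 9.78 and 9.14 in infested Holstein-Friesian animals and 8.90, 9.48 and 8.74 in naive Holstein-Friesian animals. BOLA-DOA (Bt.2227.1.S1_at) read 6.58, 6.68 and 6.04 in infested Brahman animals, 6.72, 6.53 and 6.51 in naive Brahman animals, 6.37, 6.42 and 5.97 in infested Holstein-Friesian animals and 6.25, 6.64 and 5.78 in naive Holstein-Friesian animals. Groups overlapped for both genes in both breeds. The infestation difference over both breeds was 0.26 ± 0.17 for BOLA-DMB and -0.06 ± 0.17 for BOLA-DOA, with 95% confidence intervals of -0.11 to 0.64 and -0.43 to 0.31.

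BOLA-DMA, the alpha chain of DM, read 6.30, 8.18 and 8.23 in infested Brahman animals, 7.49, 7.85 and 8.37 in naive Brahman animals, 8.47, 9.19 and 8.19 in infested Holstein-Friesian animals and 6.71, 7.59 and 7.18 in naive Holstein-Friesian animals. All infested Holstein-Friesian animals were above all naive ones, and infested Brahman 1, the array with the lowest 5′ minus 3′ index, was below every other animal. The difference was -0.33 ± 0.48 in Brahman (adjusted p = 0.664) and 1.46 ± 0.48 in Holstein-Friesian (adjusted p = 0.11). Without infested Brahman 1 the Brahman difference was 0.30 (adjusted p = 0.579). In that fit, where the array no longer entered the pooled spread, the Holstein-Friesian difference passed the test at the same size (adjusted p = 0.0164).

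The DY pair did not follow DR in Brahman skin. BOLA-DYA, the alpha chain, read by a probe set of low signal, fell in infested Brahman skin. BOLA-DYB, the beta chain, rose in infested Holstein-Friesian skin. In infested animals BOLA-DYB was 4.71-fold lower in Brahman than in Holstein-Friesian skin.

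BOLA-DYB (Bt.29870.1.S1_at) read 4.86, 5.82 and 5.75 in infested Brahman animals, against 6.27, 5.98 and 6.56 in naive Brahman animals. It read 7.65, 8.17 and 7.32 in infested Holstein-Friesian animals, against 6.63, 6.72 and 6.50 in naive Holstein-Friesian animals. The infested Brahman animals were the 3 lowest and the infested Holstein-Friesian animals the 3 highest, with naive animals between them. The difference was -0.79 ± 0.28 in Brahman (adjusted p = 0.0682) and 1.10 ± 0.28 in Holstein-Friesian (2.14-fold, adjusted p = 0.0485, or 0.0656 with the animal number as a block). The Brahman difference was -0.49 without infested Brahman 1. The Holstein-Friesian call held under 8 of 21 alternatives and was lost without infested Holstein-Friesian 1 (1.13, adjusted p = 0.0665).

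Between infested animals BOLA-DYB was lower in Brahman than in Holstein-Friesian skin, with a Brahman minus Holstein-Friesian difference of -2.24 ± 0.28 (adjusted p = 0.0102). This held under 19 of 21 alternatives. It was lost when only these 6 arrays were fitted (adjusted p = 0.342) and without infested Holstein-Friesian 2. Between naive animals the difference was -0.34 ± 0.28, with overlapping groups. The mean over naive and infested animals was -1.29 ± 0.20 (adjusted p = 0.0382), which held under 11 of 20 alternatives.

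The infestation effect on BOLA-DYB in Brahman minus that in Holstein-Friesian skin was -1.89 ± 0.40, with an unadjusted p of 0.000572 and an adjusted p of 0.32. Without infested Brahman 1 and infested Holstein-Friesian 1, the arrays of lowest 5′ minus 3′ index, it was -1.62 (adjusted p = 0.0295), in a fit that called 1131 probe sets in all against 1 with all arrays. It was -1.58 without infested Brahman 1 alone (adjusted p = 0.136), -1.92 without infested Holstein-Friesian 1 alone (adjusted p = 0.0605) and -1.40 with the index as a covariate (adjusted p = 0.378). Over the 12 arrays BOLA-DYB had a correlation with the index of 0.55, BOLA-DYA of 0.61 and BOLA-DMA of 0.42, against -0.45 for BOLA-DRA. The index was lowest in infested Brahman 1 (-4.91), then in infested Holstein-Friesian 1 (-2.73), infested Brahman 2 (-2.56) and infested Brahman 3 (-2.07). The part of RNA integrity in the DY differences was not tested beyond these fits. After removal of the group means, BOLA-DYB and BOLA-DMA had a correlation of 0.88 over the 12 arrays, and of 0.73 without infested Brahman 1, which lay furthest below its group mean in both.

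BOLA-DYA (Bt.29871.1.S1_at) read 5.48, 5.20 and 5.22 in infested Brahman animals, against 6.04, 5.73 and 6.20 in naive Brahman animals. It read 5.48, 6.19 and 6.32 in infested Holstein-Friesian animals, against 5.97, 5.86 and 5.63 in naive Holstein-Friesian animals. All infested Brahman animals were below all naive ones, and infested Holstein-Friesian 1 was as low as infested Brahman 1. The difference was -0.69 ± 0.22 in Brahman (adjusted p = 0.0487) and 0.18 ± 0.22 in Holstein-Friesian (adjusted p = 0.692), or 0.44 without infested Holstein-Friesian 1 (adjusted p = 0.168). The Brahman call held under 7 of 20 alternatives and was lost with the 5′ minus 3′ index as a covariate. The mean level of this probe set was at the 35.6th percentile of all probe sets, and the low-signal filter, set at 40%, left it out. With that filter 3 class II probe sets rose and 0 fell in Brahman skin.

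In counts over the class II probe sets, 3 of 20 rose and 1 fell in Brahman skin, where 19.8% of all probe sets were called, 9.54% as higher and 10.2% as lower, so that the share of members called was close to the background. In Holstein-Friesian skin 4 of 20 rose and 0 fell, where 5.02% of all probe sets were called, 2.68% as higher and 2.34% as lower. Over both breeds 5 rose and 0 fell, where 27.9% of all probe sets were called, 13.6% as higher and 14.2% as lower. The median infested minus naive difference of the members was 0.10 in Brahman and 1.34 in Holstein-Friesian skin, against 0.04 and -0.03 over all probe sets. Infested and naive animals did not overlap for 10 of 20 members in Brahman (7 higher and 3 lower, 38.5% of all probe sets) and for 7 in Holstein-Friesian (all higher, 30.3% of all probe sets in either direction). The members share genes, haplotypes and arrays, so these counts do not describe independent observations.

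**Figure D3:**
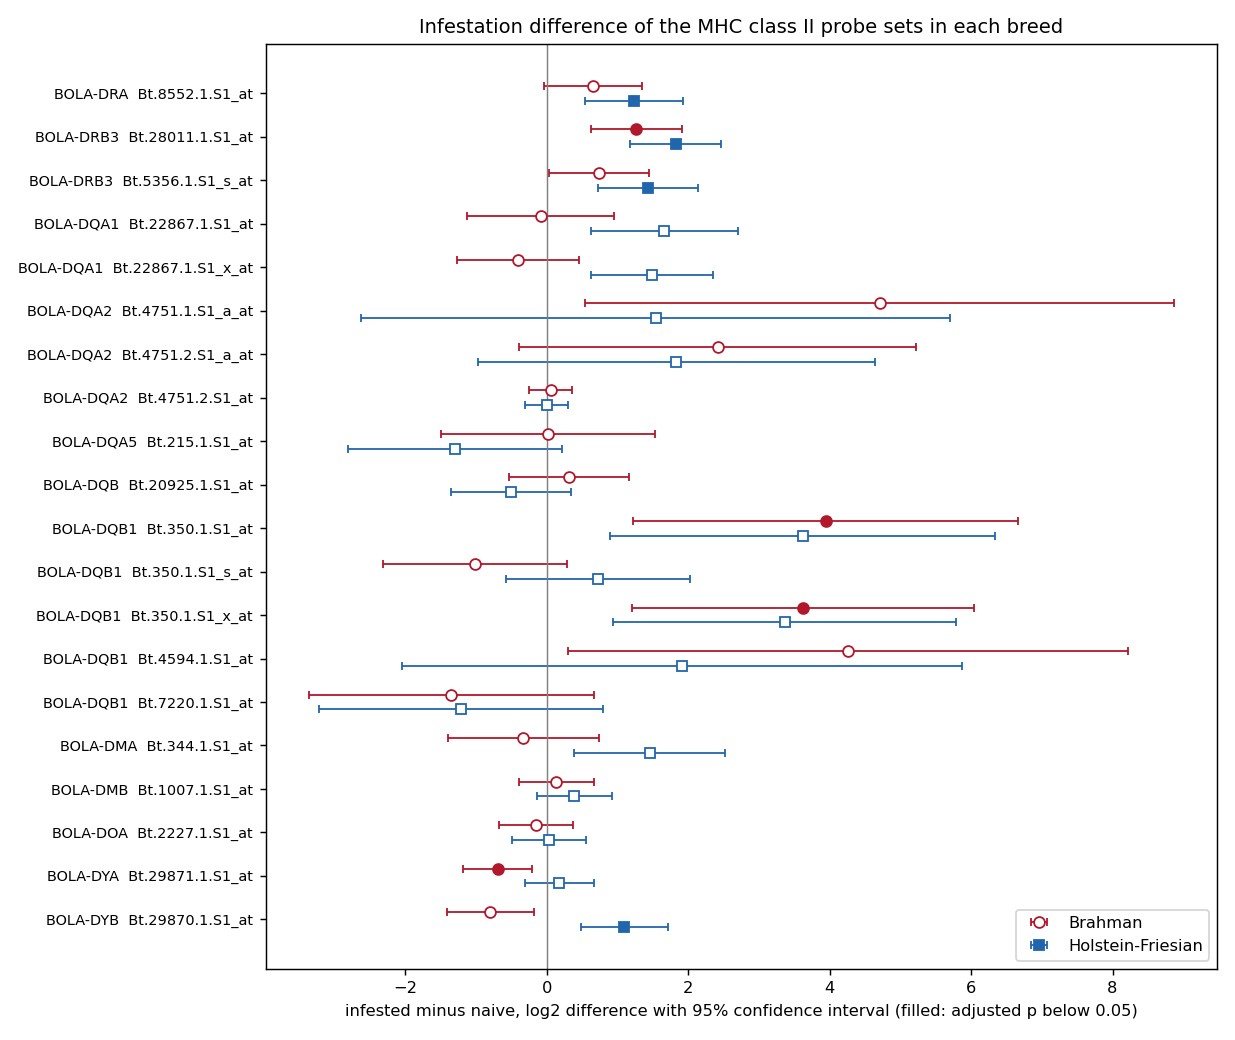
Infested minus naive log2 difference (horizontal axis) with its 95% confidence interval for each of the 20 probe sets (rows) in Brahman (red circles) and Holstein-Friesian skin (blue squares), 3 against 3 animals. Filled symbols have an adjusted p below 0.05. Both DRB3 differences of Bt.28011.1.S1_at are filled, at 1.27 and 1.83, and the widest intervals belong to BOLA-DQA2 Bt.4751.1.S1_a_at and BOLA-DQB1 Bt.4594.1.S1_at.

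Before the breed comparisons, probe sets of the same gene were compared with each other, since several class II loci are polymorphic. Over the 15 pairs of probe sets within BOLA-DRB3, BOLA-DQA1, BOLA-DQA2 and BOLA-DQB1, the breed effect was compared by a two-sided exact permutation test with 400 arrangements, whose smallest possible p is 0.005. No pair differed at p below 0.05. The smallest p was 0.05 for BOLA-DQB1 Bt.350.1.S1_s_at (-0.13) against Bt.7220.1.S1_at (-1.56), with an adjusted p of 0.75. With groups this small and DQ values this variable, a p that misses the threshold does not show that probe sets of a gene agreed.

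The infestation effect differed within BOLA-DQB1 at an unadjusted exact p below 0.05 in 4 of the 15 pairs and in none after adjustment. These pairs set Bt.350.1.S1_at and Bt.350.1.S1_x_at, which count as 1 measurement, against Bt.7220.1.S1_at and Bt.350.1.S1_s_at, so they are not separate findings. The widest difference was 5.06 log2 units between Bt.350.1.S1_at (3.78) and Bt.7220.1.S1_at (-1.28), with an exact permutation p of 0.015 and an adjusted p of 0.0938. The estimate for BOLA-DQB1 as a gene depends on which probe set is read, although no difference between its probe sets passed adjustment. The 2 BOLA-DRB3 probe sets differed by 0.46 in the infestation effect (exact permutation p = 0.135) and had a correlation of 0.83 over the 12 arrays.

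Among the naive animals no member differed between breeds by limma's adjusted p, and 2 did at an unadjusted p below 0.05, both of BOLA-DQA1. In this comparison 0.0250% of all probe sets were called and 4.78% had an unadjusted p below 0.05. Among infested animals 1 member, BOLA-DYB, was lower in Brahman skin, where 0.167% of all probe sets were called. Averaged over naive and infested animals it was again BOLA-DYB alone, against 0.137% of all probe sets. BOLA-DYB had 1 probe set, so neither of these calls could be checked against a second probe set of the gene. For the difference between the breeds in the infestation effect 0 members passed limma's adjusted p and 5 had an unadjusted p below 0.05, against 0.00416% and 7.46% of all probe sets.

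Other genes of class II presentation were taken from lists by function. Of the class II loading and processing list, 10 of 12 genes were measured, and 3 rose and 0 fell in Holstein-Friesian skin, where 2.68% of all probe sets were called higher. CTSS, the cathepsin that trims the invariant chain, read 11.82, 10.86 and 10.80 in infested Brahman animals, 9.61, 10.35 and 10.48 in naive Brahman animals, 11.01, 12.05 and 11.78 in infested Holstein-Friesian animals and 9.31, 10.41 and 9.67 in naive Holstein-Friesian animals. Infested animals were above naive ones in both breeds, by 1.02 ± 0.39 in Brahman (adjusted p = 0.0869) and 1.82 ± 0.39 in Holstein-Friesian (adjusted p = 0.0272). CTSH, another lysosomal cathepsin, rose by 1.32 (adjusted p = 0.0346) and LGMN, the asparaginyl endopeptidase legumain, by 1.01 (adjusted p = 0.0329) in Holstein-Friesian skin. In Brahman skin 0 of the 10 passed limma's test. Over both breeds CTSS, CTSH and LGMN rose by 1.42, 0.88 and 0.66.

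Of the class II transactivation list, 11 of 18 genes were measured, and CIITA was not among them under that symbol. In Holstein-Friesian skin 0 of the 11 passed limma's test. In Brahman skin 2 rose and 1 fell, 3 of 11 genes where 19.8% of all probe sets were called. IFNGR2, a chain of the interferon gamma receptor, rose by 0.51 (adjusted p = 0.0273), and NFYC, a subunit of the promoter-binding factor NF-Y, rose by 0.57 (adjusted p = 0.0375). RFXANK, a subunit of the RFX complex that binds class II promoters, fell by 0.69 (adjusted p = 0.0185). With the 5′ minus 3′ index as a covariate none of these 3 calls held, and NFYC differed by 0.22. Of the costimulation list, 11 of 14 genes were measured and 2 rose over both breeds, CD86, the ligand of CD28, by 1.34 ± 0.32 (adjusted p = 0.0109) and ICAM1, an adhesion ligand, by 1.02 ± 0.33 (adjusted p = 0.042). These were 2 of 11 genes where 13.6% of all probe sets were called higher. The CD86 call held under 19 of 20 alternatives and the ICAM1 call under 10 of 20. Class I molecules display peptides made inside the cell, and 15 genes of that pathway were measured. Over both breeds 2 rose, the peptide transporter TAP2 by 0.65 (adjusted p = 0.0233) and the proteasome subunit PSMB9 by 0.59 (adjusted p = 0.0485). The chaperone CALR fell by 2.51 (adjusted p = 0.0226) and PDIA3 fell by 1.14 (adjusted p = 0.0447), but with the 5′ minus 3′ index as a covariate the differences were -0.49 for CALR and -0.24 for PDIA3, and neither passed. These 4 of 15 genes compare with 27.9% of all probe sets called over both breeds, so the share of class I pathway genes called was close to the background.

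The mean level of the measured genes of the macrophage and dendritic cell list was higher in infested skin of both breeds. Markers of other cells that can carry class II did not all move that way. Of 14 macrophage and dendritic cell markers 6 were measured, namely CD68, CSF1R, CD14, CD209, MSR1 and FCGR1A. The dendritic cell markers CD1E, FLT3, BATF3 and XCR1 were not measured under these symbols. In Brahman skin 3 rose (CD14, MSR1 and FCGR1A), in Holstein-Friesian skin 5 (CD14, MSR1, FCGR1A, CD209 and CD68), and 0 fell in either breed, where 9.54% and 2.68% of all probe sets were called higher. Their mean log2 level was between 8.22 and 8.70 in infested Brahman skin, 6.98 and 7.43 in naive Brahman skin, 8.69 and 8.90 in infested Holstein-Friesian skin, and 6.69 and 7.54 in naive Holstein-Friesian skin. CD14, a lipopolysaccharide receptor of monocytes and macrophages, rose by 1.49 in Brahman (adjusted p = 0.0107) and 2.22 in Holstein-Friesian skin (adjusted p = 0.00698). Of the Langerhans cell list only EPCAM and CDH1 were measured, which epithelial cells also express, and both fell in Brahman skin, with differences of -1.17 (adjusted p = 0.0028) and -0.91 (adjusted p = 0.0283). Of 5 measured B and plasma cell markers MZB1, a protein of antibody-secreting cells, rose by 2.31 in Holstein-Friesian skin (adjusted p = 0.00693). No other marker of that list was called there. MS4A1 was lower on average in infested Holstein-Friesian animals, while the median difference of the list was 0.49. Of 7 measured T cell markers CD8A rose by 1.09 in Brahman skin (adjusted p = 0.0477), a call that held under 8 of 20 alternatives. The other T cell markers were not called there. CD3D and CD3E were lower on average in infested Brahman animals, while the median difference of the list was 0.22. The mean log2 level of the B and plasma cell markers was between 5.91 and 6.92 in infested Brahman, 5.87 and 6.74 in naive Brahman, 6.997 and 7.28 in infested Holstein-Friesian, and 6.00 and 6.44 in naive Holstein-Friesian skin. That of the T cell markers was between 6.52 and 7.17 in infested Brahman, 6.32 and 6.92 in naive Brahman, 6.47 and 6.92 in infested Holstein-Friesian, and 5.98 and 6.50 in naive Holstein-Friesian skin. The part of these cell markers in the class II differences was not tested.

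BOLA-DRA followed genes of leukocytes closely across all 12 arrays. Of 9143 other genes, the 8 most like it by Pearson correlation were IL10RA (0.98), a receptor chain for interleukin-10; ITGB2 (0.97), the beta-2 integrin chain; PTPRC (0.97), the leukocyte phosphatase CD45; TYROBP (0.97), a signalling adaptor of myeloid cells; LAPTM5 (0.95); CD53 (0.95), a leukocyte tetraspanin; CD86 (0.95); and SRGN (0.95), the granule proteoglycan serglycin. The 99th percentile over these genes was 0.86 and the median -0.04. The arrays share the infestation contrast, so part of any such likeness is common to genes that differ between infested and naive skin.

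PTPRC read 9.65, 8.45 and 8.67 in infested Brahman animals, 7.71, 8.32 and 8.95 in naive Brahman animals, 8.55, 10.16 and 8.95 in infested Holstein-Friesian animals and 7.13, 8.24 and 7.47 in naive Holstein-Friesian animals. Infested Holstein-Friesian 2 and infested Brahman 1 were highest for PTPRC, as they were for BOLA-DRA, and naive Holstein-Friesian 1 was lowest for both. The infestation difference of PTPRC was 0.60 ± 0.48 in Brahman (adjusted p = 0.401) and 1.60 ± 0.48 in Holstein-Friesian (adjusted p = 0.0801), beside 0.65 and 1.24 for BOLA-DRA. Without infested Brahman 1, the array of lowest 5′ minus 3′ index, the Brahman difference was 0.24 for PTPRC (adjusted p = 0.78) and 0.41 for BOLA-DRA.

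**Figure D4:**
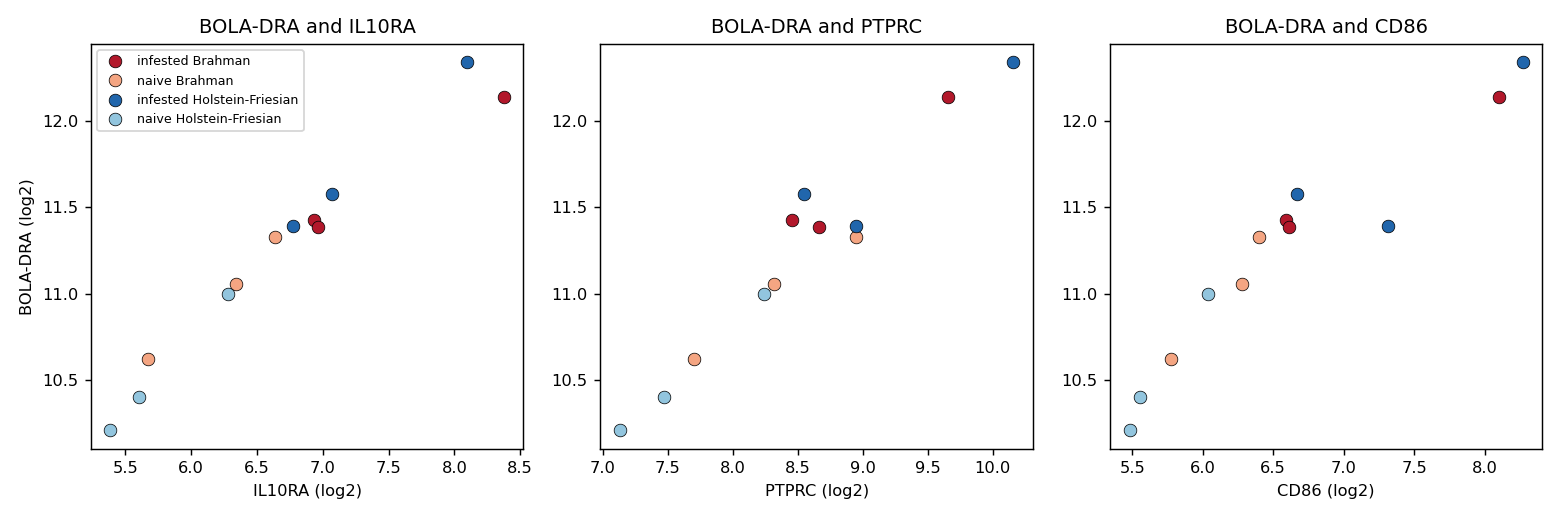
BOLA-DRA expression (log2, vertical axis) against IL10RA, PTPRC and CD86 (log2, horizontal axes) in the 12 animals, coloured by group, 1 point per animal. In each panel infested Holstein-Friesian 2 and infested Brahman 1 are at the upper right and naive Holstein-Friesian 1 at the lower left.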

How the data were processed

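Total RNA of 12 skin biopsies was hybridised to individual Affymetrix arrays. The deposited table holds 1 value per probe set and array on the log2 scale. The authors used RMA, per the submitters' processing notes, with no version or settings stated. No raw intensities were used. Gene symbols came from the platform annotation, in which 13292 of the 24016 tested probe sets had 1 symbol, 86 several and 10638 none. Another 112 probe sets are array controls. They entered no test and served for the 5′ minus 3′ index. With RMA alone, signal close to background cannot be told from absence of a transcript, and precision is limited by having 3 arrays per group.

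The members and gene lists were chosen with earlier results of these data known. A linear model with 4 group means was fitted to all arrays with limma 3.58.1 in R 4.3.3 (8 residual degrees of freedom), with Benjamini-Hochberg adjustment within each of 7 comparisons. Probe sets of 1 gene were compared in Python by exact permutation within strata. List genes were read by the probe set with the highest mean; named list genes had the smallest p over both breeds, at most 6 per list, and the 8 genes most like BOLA-DRA were named as a description. Infested and naive animals of 1 breed differed in age and were separate animals. After removal of group means, same-numbered infested and naive Holstein-Friesian animals had correlations of 0.113 to 0.249. Fits with the animal number as a block are therefore given where they change a call. In other pairs of groups the correlations ran from -0.189 (infested and naive Brahman 1) to 0.328 (naive Brahman 1 and naive Holstein-Friesian 1). Whether same-numbered animals shared a condition was not tested. Alternatives were a low-signal filter, other normalizations and priors, array weights, fits of the compared arrays only, the block, the index, and leaving out arrays; applying them to list genes, to the genes most like BOLA-DRA and to the DYB and DMA correlation was decided after seeing the data.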

Additional observations from a re-analysis of the deposited data

Results flagged for a closer look

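The estimated infestation effect on BOLA-DYB (Bt.29870.1.S1_at) had opposite signs in the breeds, but neither the Brahman fall nor the difference between the breeds was called. Infested minus naive was -0.79 in Brahman and 1.10 in Holstein-Friesian skin, a difference of -1.89 ± 0.40 log2 units (unadjusted p = 0.000572, limma's adjusted p = 0.32). Without infested Brahman 1 the Brahman difference was -0.49 (limma's adjusted p = 0.183). BOLA-DYB had a correlation of 0.55 with the 5′ minus 3′ index, whose part was not tested beyond the fits given above. All 3 infested Brahman animals were below all naive Brahman animals, and all 3 infested Holstein-Friesian animals were above all naive Holstein-Friesian animals.

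The probe set Bt.22867.2.A1_at, annotated to LOC100848815 as well as BOLA-DQA1 and therefore not counted among the class II probe sets, reached 8.72 in infested Brahman 2. It read 5.13, 8.72 and 8.29 in infested Brahman animals, 4.70, 4.85 and 4.45 in naive Brahman animals, 4.88, 4.47 and 4.47 in infested Holstein-Friesian animals and 4.61, 4.22 and 7.09 in naive Holstein-Friesian animals. It was high in infested Brahman 2, infested Brahman 3 and naive Holstein-Friesian 3 and below 5.2 in the others. The infested minus naive difference was 2.71 ± 0.88 in Brahman (adjusted p = 0.0522) and -0.70 ± 0.88 in Holstein-Friesian (adjusted p = 0.699).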

How the results depend on the processing

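Over 2852 combinations of a class II result and an alternative, 2692 kept their side of the threshold, 80 lost the call and 80 gained one. Of the 2692, 2545 kept their direction and 147, not called under either setting, changed sign; no called difference changed sign. The number of class II probe sets called in Brahman skin, 4 with all arrays, was 2 with array weights, 2 with the replicate block, 7 without the 2 arrays of lowest 5′ minus 3′ index and 1 when the fit had that index as a covariate, and between 1 and 7 when leaving out 1 array. In Holstein-Friesian skin it was 4, and 10 with array weights, 11 without the 2 arrays, 7 with the index, 3 with the replicate block and between 0 and 7 leaving out 1 array; the 0 came without naive Holstein-Friesian 1. Over both breeds it was 5, and 10 with array weights, 12 without the 2 arrays and between 5 and 11 leaving out 1. For the difference between the breeds in the infestation effect it was 0, and 3 with array weights, 4 without the 2 arrays and 0 to 3 leaving out 1. Between naive breeds it was 0, and 2 with only the arrays compared, 2 with array weights, 2 without the 2 arrays and 0 to 1 leaving out 1. Between infested breeds it was 1, and 0 with only the arrays compared, 2 with array weights, 2 without the 2 arrays and 0 to 2 leaving out 1. For the mean breed difference it was 1, and 0 with the replicate block, 2 without the 2 arrays and 0 to 1 leaving out 1. Fewer arrays and another weighting change the pooled spread by construction; beyond that, the cause was not tested.

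The replicate block also ended the calls of BOLA-DQB1 Bt.350.1.S1_at (adjusted p = 0.053) and BOLA-DYA (0.0726) in Brahman skin and of BOLA-DYB in the mean breed difference (0.077). Averaging the probe sets of a gene gave adjusted p = 0.0222 for BOLA-DRB3 and 0.0573 for BOLA-DQB1 in Brahman skin, and 0.00942 for BOLA-DRB3 in Holstein-Friesian skin. The background count moved too, with 1808 to 7657 probe sets called in Brahman skin over the alternatives against 4753 as reported, and 157 to 4589 in Holstein-Friesian skin against 1206. Median centring moved the median difference of all probe sets in Brahman skin to 0.14. With 3 animals per group and 1 array per animal, the standard errors of the infestation difference within a breed ran from 0.14 to 1.89 over the DQ probe sets, and a difference of 4.71 was not called.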

Other observations

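Class I probe sets with a single gene symbol also split the animals, but not the same ones. The shared probe set Bt.5324.1.S1_s_at of BOLA, the classical class I heavy chain, read 8.40, 13.34 and 13.34 in infested Brahman animals, 12.82, 6.26 and 13.26 in naive Brahman animals, 13.37, 13.67 and 13.03 in infested Holstein-Friesian animals and 5.94, 13.52 and 12.64 in naive Holstein-Friesian animals. It was low in infested Brahman 1, the array of lowest 5′ minus 3′ index (-4.91), and in naive Brahman 2 and naive Holstein-Friesian 1. BOLA-N (Bt.3805.1.S1_at), another class I heavy chain, was lowest in the same 3 animals, at 6.20, 5.34 and 5.53, and between 8.49 and 12.16 in the other 9. None of these 3 animals was among the 4 that were low for BOLA-DQA2 and BOLA-DQB1 Bt.4594.1.S1_at. These probe sets were chosen after their values were seen, and class I probe sets annotated to several symbols are not described.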
